A study of Homo sapiens with 12 samples.

Results

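The genes described here encode the proteins of the small nucleolar ribonucleoproteins (snoRNPs), 10 genes of the 55765 names in the gene count table, taken by symbol from their known roles, with earlier results of these data known. Of them, 6 belong to the H/ACA class (the core proteins DKC1, NHP2, NOP10 and GAR1 and the assembly factors NAF1 and SHQ1), and 4 are box C/D proteins (FBL, NOP56, NOP58 and NHP2L1). All 10 were in the table and passed the filter on low counts. RNA was sequenced from cultured HEK293T cells (the growth protocol writes HEK293), a kidney-derived human line transformed with adenovirus DNA and carrying SV40 large T antigen, after siRNA against the exonuclease gene ERI2 or after a control siRNA named C2, with 3 libraries in each group. The protocol in the labels gives 50 nM siRNA in lipid reagent, a repeat transfection after 48 hours and collection 72 hours later. It also names ERI-1 siRNAs and a harvest for microarrays, which no sample here is labelled with, so whether this schedule is that of the sequenced cells is not certain. The labels name no other allele or agent. Each replicated group is 1 cell line, and no ERI2 siRNA with another sequence and no rescue is labelled, so loss of ERI2 and other effects of its siRNA cannot be told apart. Nothing in the labels states that replicates were grown separately, so the p-values rest on library-to-library spread that may be technical. In bulk RNA, a change in the mix of cells and a change in RNA per cell cannot be told apart.

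A snoRNP is a short guide RNA wrapped by a fixed set of proteins, and it places a chemical mark on ribosomal or spliceosomal RNA where the guide pairs with it. H/ACA particles convert uridine to pseudouridine through DKC1 (dyskerin), and the same proteins bind the RNA of telomerase. Box C/D particles methylate ribose through FBL (fibrillarin). Each class has an L7Ae-family protein, NHP2 in H/ACA particles and NHP2L1 in box C/D particles. Many of the guide RNAs are cut from introns of genes for ribosome and nucleolar proteins, some of the 10 genes here among them.

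The RNA-seq libraries held 29143596 to 32646277 counts after ERI2 siRNA and 30099367 to 38306631 counts after control siRNA. ERI2 mRNA, the target, was 34.6, 35.8 and 32.5 CPM (counts of a gene scaled to the same library total by TMM) in ERI2 siRNA libraries, against 54.4, 58.2 and 54.4 CPM in control siRNA libraries, so the groups were apart. It fell by 0.70 on the log2 scale (adjusted p = 0.000683 by edgeR's quasi-likelihood test, Benjamini-Hochberg method). Of the listed markers of HEK293 lines, NEFL averaged 25.8 and 36.5 CPM and INA 15.2 and 21.2 CPM in ERI2 siRNA and control siRNA libraries. NEFM averaged 5.97 and 8.09 CPM and PAX2 1.04 and 0.762 CPM in the same order. NEFL and INA fell (adjusted p = 0.0138 and 0.0274 in edgeR's test), and NEFM and PAX2 did not pass (0.0530 and 0.454). Of 12 markers of epithelia, fibroblasts and blood, KRT5, COL1A2, HBB and HBG1 had no count in any library, and CDH1 and COL1A1 were the only ones of the 12 above 1 CPM on average. CDH1 averaged 4.63 CPM after ERI2 siRNA and 6.69 CPM after control siRNA and fell (adjusted p = 0.0321 in edgeR's test), and the part of these markers in the results was not tested.

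Of the 10 snoRNP protein genes, 2 rose after ERI2 siRNA and none fell: NOP58, a scaffold of the box C/D particle, and NAF1, an assembly factor of the H/ACA particle. The changes were 1.29-fold and 1.22-fold. Of all 18843 tested genes, 8.54% were called, 4.29% higher and 4.25% lower, at an adjusted p under 0.05, which is the background for the 2 of 10 here. Before adjustment 4 members were higher and 0 lower (p under 0.05). DESeq2 called 3 members higher and 0 lower, and limma-voom called 1 higher and 0 lower. The shares above hold for adjusted p in edgeR's test and are not the background for these counts. Over all genes DESeq2 called 1035 higher and 1020 lower, and limma-voom 787 and 752. Before adjustment, more genes than that were at p under 0.05 in each direction. Scaling by total library size put the median of all tested genes at 0.06 and gave 67.8% of calls higher against 50.3% under TMM. The median log2 fold change of the 10 genes was 0.09, against 0.0030 over all tested genes, and 7 of the 10 were above 0.

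**Figure D1:**
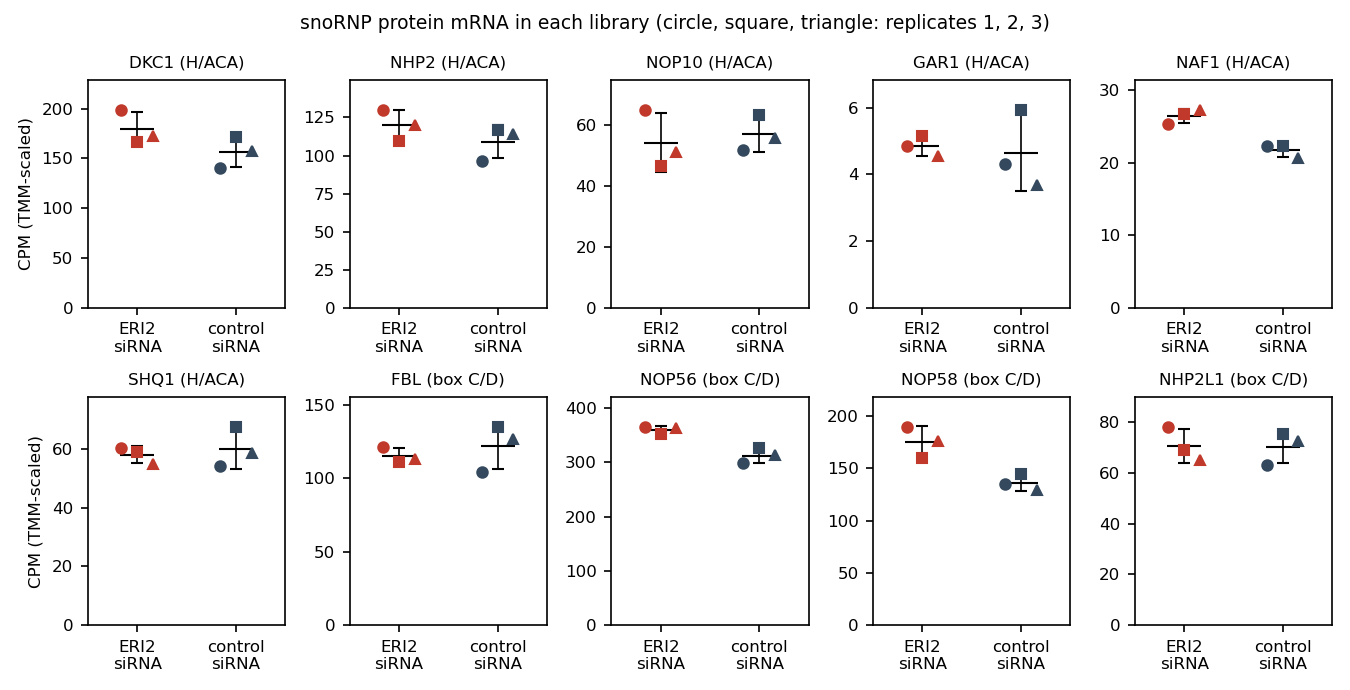
Level of each of the 10 mRNAs in every library, in TMM-scaled CPM on axes that start at 0 and differ between panels, with the mean and SD (n = 3) of ERI2 siRNA on the left and control siRNA on the right. The groups are apart for NAF1, NOP56 and NOP58, and overlap for the other 7 genes.

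Among the H/ACA core proteins, DKC1, the pseudouridine synthase, measured 199, 167 and 172 CPM in ERI2 siRNA libraries, against 141, 172 and 158 CPM in control siRNA libraries. ERI2 siRNA replicate 1 was the highest and control siRNA replicate 1 the lowest, and the other 4 libraries lay between 158 and 172 CPM. It did not pass (log2 fold change 0.19, SE 0.0890, adjusted p = 0.182 in edgeR's test), with a 95% interval from 0.0032 to 0.38 that was not adjusted for the number of genes. The log2 fold change was 0.10 without ERI2 siRNA replicate 1, 0.12 without control siRNA replicate 1 and 0.036 with replicates 2 and 3 alone. NHP2, the L7Ae-family subunit that holds the guide RNA with DKC1, measured 130, 110 and 120 CPM after ERI2 siRNA and 96.5, 117 and 114 CPM after control siRNA. The same libraries, both replicates 1, were again the extremes, and the groups overlapped (log2 fold change 0.13, SE 0.0874, adjusted p = 0.349 in edgeR's test).

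NOP10, the small protein that rests on the catalytic domain of DKC1, spread widely after ERI2 siRNA. It measured 65.0, 46.4 and 51.0 CPM in ERI2 siRNA libraries, against 51.9, 63.1 and 55.6 CPM in control siRNA libraries. Replicates 2 and 3 of ERI2 siRNA were the lowest of the 6 and replicate 1 the highest (log2 fold change -0.07 and adjusted p = 0.728 in edgeR's test). GAR1, which joins last and completes the mature particle, had the fewest reads of the 10, with 153, 174 and 138 counts after ERI2 siRNA and 152, 220 and 106 counts after control siRNA. Whether the annotation or counting left out reads of GAR1 was not tested, so its level is that of the counted reads. Its control libraries spread 1.61-fold in CPM, the widest spread of any member within a group, so the interval of its log2 fold change, from -0.33 to 0.44, does not separate a modest rise from a modest fall.

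NAF1, which holds the place of GAR1 on the new particle until it matures, was 25.4, 26.7 and 27.3 CPM in ERI2 siRNA libraries, against 22.3, 22.3 and 20.7 CPM in control siRNA libraries. Every ERI2 siRNA library was above every control siRNA library, and the means were 26.5 ± 0.980 and 21.8 ± 0.919 CPM (SD, n = 3). NAF1 rose by 0.28 on the log2 scale (SE 0.0824, 1.22-fold, adjusted p = 0.0496 in edgeR's test), a value at the threshold. The call ended in limma-voom (adjusted p = 0.0543), without the count filter (0.0719) and without 5 of the 6 single libraries, where adjusted p ran from 0.0556 without control siRNA replicate 1 to 0.191 without ERI2 siRNA replicate 3 in edgeR's test. It held without ERI2 siRNA replicate 1 (adjusted p = 0.0429 in edgeR's test), and the fold change was positive in all 14 alternatives that gave one, between 0.23 and 0.34 on the log2 scale. SHQ1, the chaperone that holds DKC1 before it meets RNA, was 60.6, 59.3 and 54.9 CPM after ERI2 siRNA, against 54.3, 67.7 and 58.7 CPM after control siRNA, with overlapping groups (log2 fold change -0.05 and adjusted p = 0.767 in edgeR's test).

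Among the box C/D proteins, the closely related scaffolds NOP56 and NOP58, around which the guide RNA folds, were higher in every ERI2 siRNA library than in any control siRNA library. NOP58 measured 190, 160 and 176 CPM after ERI2 siRNA, against 135, 144 and 129 CPM after control siRNA, with means of 175 ± 15.0 and 136 ± 7.59 CPM (SD, n = 3). It rose by 0.36 on the log2 scale (SE 0.0790, 1.29-fold, adjusted p = 0.01495 in edgeR's test). The call ended without ERI2 siRNA replicate 3 (adjusted p = 0.0561) and without control siRNA replicate 3 (adjusted p = 0.105 in edgeR's test), with log2 fold changes of 0.36 and 0.31.

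NOP56 was 365, 352 and 363 CPM in ERI2 siRNA libraries, against 298, 326 and 313 CPM in control siRNA libraries, with means of 360 ± 6.90 and 312 ± 14.2 CPM (SD, n = 3). The groups did not overlap, but NOP56 did not pass (log2 fold change 0.21, SE 0.0749, adjusted p = 0.0995 in edgeR's test). It passed in DESeq2 (adjusted p = 0.0386) and under total library size (adjusted p = 0.0270 in edgeR's test). The groups were apart for 3 of the 10 members, NAF1, NOP56 and NOP58, against 29.7% of all tested genes, so the share among the members was near the background.

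FBL, the methyltransferase of the same particle, measured 121, 111 and 113 CPM after ERI2 siRNA, against 105, 135 and 127 CPM after control siRNA. ERI2 siRNA replicates 2 and 3 were below control siRNA replicates 2 and 3, and ERI2 siRNA replicate 1 was above control siRNA replicate 1 (log2 fold change -0.09, interval from -0.28 to 0.11, adjusted p = 0.581 in edgeR's test). NHP2L1 (15.5K, listed as SNU13 in newer annotation), which also binds the U4 RNA of the spliceosome, was 78.2, 68.9 and 65.0 CPM after ERI2 siRNA and 63.2, 75.4 and 72.7 CPM after control siRNA. Its log2 fold change was 0.0055, the closest to 0 of the 10, with an interval from -0.18 to 0.19. NHP2P1 and NHP2P2, pseudogenes of NHP2, had at most 2 counts in any library. FBLL1, a gene related to FBL, had 25, 28 and 24 counts after ERI2 siRNA and 39, 25 and 37 counts after control siRNA, and did not pass (adjusted p = 0.529 in edgeR's test).

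**Figure D2:**
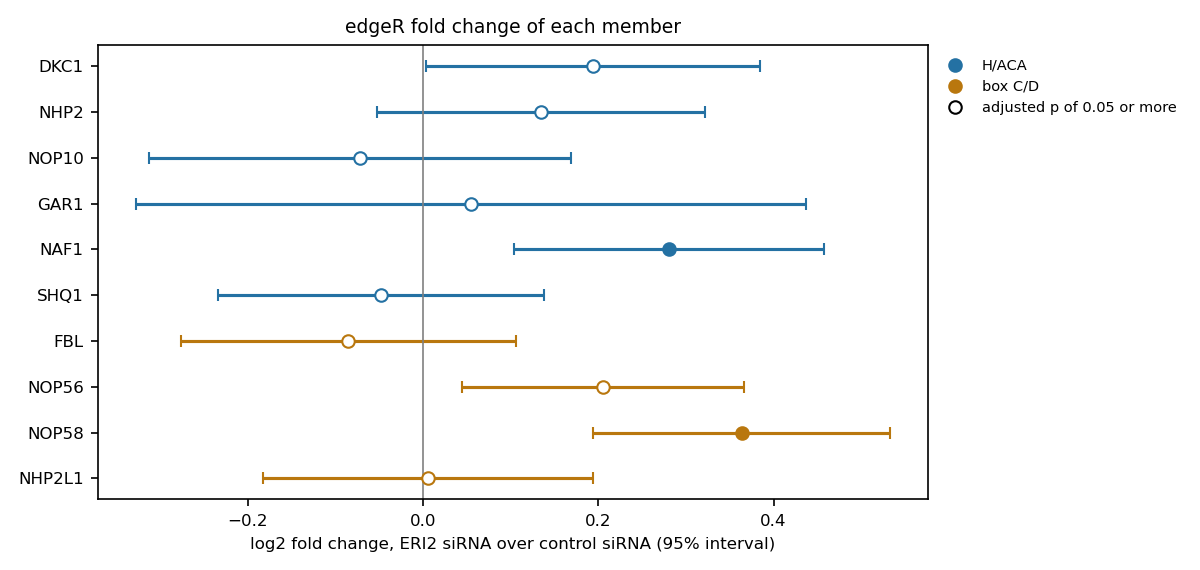
Log2 fold change of ERI2 siRNA over control siRNA for each member with its 95% interval from edgeR's fit, H/ACA genes in blue and box C/D genes in orange, filled where the adjusted p was under 0.05. NAF1 (0.28) and NOP58 (0.36) are filled, and DKC1 (0.19) and NOP56 (0.21) lie above 0 without passing.

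The H/ACA and box C/D sets did not separate. The mean log2 fold change was 0.09 for the 6 H/ACA genes and 0.12 for the 4 box C/D genes, a difference of -0.03. In single libraries, the mean log2 CPM of the H/ACA set, centred for each gene on its mean over the 6 libraries, minus that of the box C/D set, was -0.012, -0.0029 and -0.026 after ERI2 siRNA, against 0.020, 0.076 and -0.055 after control siRNA. The ERI2 siRNA values lay inside the range of the control siRNA values, and the difference was smaller than the SD between replicates of 0.047. Each set had 1 gene that passed, and each had members on both sides of 0, from -0.07 to 0.28 in the H/ACA set and from -0.09 to 0.36 in the box C/D set.

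Across the 10 genes, the replicate 1 libraries were the extremes. ERI2 siRNA replicate 1 was the highest library for 6 of the 10 genes and above the gene's mean for all 10, while control siRNA replicate 1 was the lowest for 6 and below the mean for all 10. Over all tested genes, 14.6% were highest in ERI2 siRNA replicate 1 and 14.3% lowest in control siRNA replicate 1. Replicate numbers do not pair the libraries, as same-numbered libraries correlated at -0.62, -0.29 and -0.07 in their deviations from the group means. Matching by number is therefore arbitrary, and the counts that follow describe these libraries only. ERI2 siRNA replicate 1 was above control siRNA replicate 1 for 10 of 10 members, with log2 ratios from 0.16 to 0.50. The same count was 3 of 10 between the replicate 2 libraries and 6 of 10 between the replicate 3 libraries, where log2 ratios ran from -0.44 to 0.26 and from -0.17 to 0.45. Over all tested genes the share above 0 was 49.3%, 50.3% and 49.2% in these 3 comparisons. The shift between the replicate 1 libraries was not particular to the members. Their median log2 ratio there was 0.30, and that of 57 partner genes of assembly, trafficking and related RNA modification was 0.24. Over replicates 2 and 3 the medians were 0.01 for the members and -0.06 for the partner genes. The members above 0 in all 3 comparisons were NAF1, NOP56 and NOP58, which follows from their groups being apart. With replicates 2 and 3 alone, NOP58 (0.29) and NAF1 (0.32) were higher and NOP10 (-0.29) and FBL (-0.23) lower on the log2 scale (edgeR's test, adjusted p from 0.00680 to 0.0183). That fit called 2622 of all genes higher and 2670 lower, against 809 and 800 with all 6 libraries. This larger number of calls is the background for the 4 members.

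**Figure D3:**
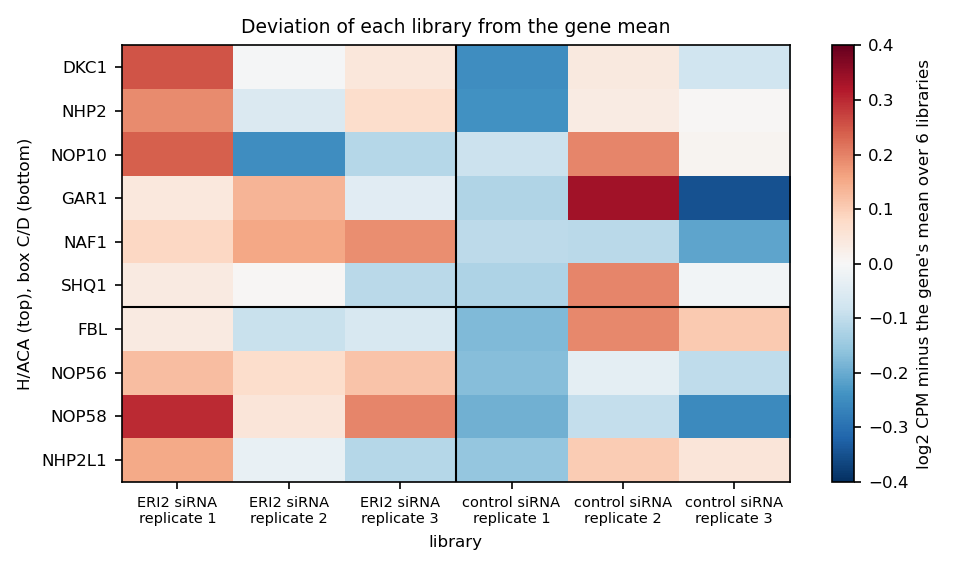
Log2 CPM of each member in each library minus the gene's mean over the 6 libraries, ERI2 siRNA on the left, control siRNA on the right, H/ACA genes above the line and box C/D genes below. The column of ERI2 siRNA replicate 1 is above 0 and that of control siRNA replicate 1 below 0 for all 10 genes, while the rows of NAF1, NOP56 and NOP58 change sign between the groups.

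Ratios of subunit counts within a library do not depend on how libraries are scaled, and they were set against the catalytic subunit of each particle. NOP58 reads per FBL read were 1.56, 1.43 and 1.56 in ERI2 siRNA libraries, against 1.29, 1.07 and 1.02 in control siRNA libraries, which did not overlap. NOP56 reads per FBL read were 3.01, 3.17 and 3.21 after ERI2 siRNA, against 2.85, 2.42 and 2.46 after control siRNA, and again the groups were apart. Both box C/D scaffolds were thus higher relative to the methyltransferase, by 0.44 (NOP58) and 0.28 (NOP56) on the log2 scale, while NHP2L1 per FBL overlapped. In the H/ACA set, NOP10 reads per DKC1 read were 0.327, 0.279 and 0.296 after ERI2 siRNA, against 0.369, 0.368 and 0.352 after control siRNA. SHQ1 reads per DKC1 read were 0.305, 0.356 and 0.319 after ERI2 siRNA, against 0.386, 0.395 and 0.372 after control siRNA. Both ratios were lower without overlap, by -0.28 and -0.24 on the log2 scale, and the ratios of NHP2, GAR1 and NAF1 to DKC1 overlapped. With 3 libraries against 3, the smallest p of an exact two-sided permutation test is 0.1, which these 4 ratios reached (adjusted p = 0.2 over the 8 ratios). Over all other tested genes, 17.7% of count ratios to FBL and 36.9% of those to DKC1 were apart in this way. For DKC1, the share of subunit ratios that were apart was thus near the background. The ratios were chosen after values were seen.

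**Figure D4:**
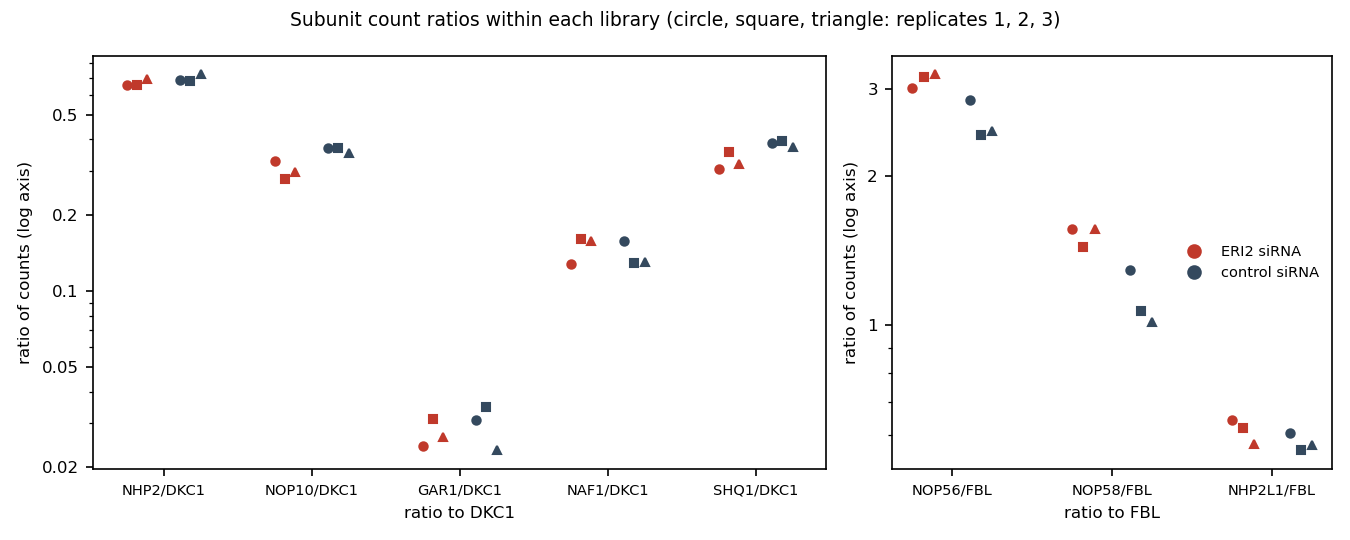
Reads of each subunit per read of DKC1 (left panel) or FBL (right panel) in every library on a log axis, ERI2 siRNA in red to the left of control siRNA in dark blue. NOP56/FBL and NOP58/FBL are higher and NOP10/DKC1 and SHQ1/DKC1 lower in all 3 ERI2 siRNA libraries than in any control siRNA library.

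Promoter sequence was taken from RefSeq (GRCh38.p14, another build than the one named for the counts) for 7 of the 10 genes, and the promoters of NAF1, NOP58 and NHP2L1 were not used here. Both strands of the 300 bases around each gene start were searched for CACGTG (the E-box bound by basic helix-loop-helix factors), CCAAT and TATAAA, and no matches of different motifs overlapped in the members. CACGTG was in 2 of the 7, NOP10 and FBL, against 7.26% of all 35116 promoters, CCAAT was in 5 of the 7 against 34.6%, and TATAAA was in 0 of the 7 against 11.5%. The median GC content was 65% in these 7 promoters and 58.7% in all promoters, and its part in the motif shares was not tested. NOP10 and FBL are shown because they hold CACGTG and had log2 fold changes just under 0, though neither passed edgeR's test. NOP56 is shown because it was the 1 member with separate groups among the 7. Capitals mark the E-box and CCAAT motifs, and each CCAAT lies on the opposite strand in each of these promoters, where the strand shown reads ATTGG.
NOP10 (chr15:34343087-34343386, minus strand): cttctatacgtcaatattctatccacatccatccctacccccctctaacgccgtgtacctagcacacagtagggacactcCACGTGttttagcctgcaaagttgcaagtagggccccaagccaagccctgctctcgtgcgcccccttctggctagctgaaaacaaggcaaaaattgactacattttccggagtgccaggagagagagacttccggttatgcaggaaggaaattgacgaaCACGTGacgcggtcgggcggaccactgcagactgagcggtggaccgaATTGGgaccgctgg
FBL (chr19:39846330-39846629, minus strand): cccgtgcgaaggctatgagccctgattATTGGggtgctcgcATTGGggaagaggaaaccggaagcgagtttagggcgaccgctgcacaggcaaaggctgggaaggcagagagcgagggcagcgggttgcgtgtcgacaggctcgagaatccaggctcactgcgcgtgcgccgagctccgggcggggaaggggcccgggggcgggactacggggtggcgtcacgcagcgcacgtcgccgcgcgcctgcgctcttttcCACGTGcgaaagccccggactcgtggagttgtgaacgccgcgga
NOP56 (chr20:2652382-2652681, plus strand): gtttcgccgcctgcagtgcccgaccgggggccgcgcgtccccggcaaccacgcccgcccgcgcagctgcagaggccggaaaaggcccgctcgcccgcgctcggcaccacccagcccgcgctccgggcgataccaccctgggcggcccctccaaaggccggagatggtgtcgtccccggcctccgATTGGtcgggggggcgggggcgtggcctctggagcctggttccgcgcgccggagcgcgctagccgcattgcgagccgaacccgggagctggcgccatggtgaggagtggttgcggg
A match is a description of these letters and not a binding site.

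Several of the genes carry guide RNAs inside their introns, and 12 listed small RNA genes lie within DKC1, NOP56 and NOP58 in RefSeq. Of these, 11 were in the gene count table and 5 had enough reads to test, and none passed edgeR's test (unadjusted p under 0.05 in 1, which was higher; 0 calls by DESeq2 and by limma-voom). SNORD11, a box C/D RNA in NOP58, had 64, 133 and 111 counts after ERI2 siRNA, against 89, 66 and 41 counts after control siRNA. ERI2 siRNA replicate 1 fell below control siRNA replicate 1, so the groups overlapped (log2 fold change 0.74 and adjusted p = 0.0982 in edgeR's test), whereas the host NOP58 was highest in that library. The other tested RNAs were SNORD70 (0.22) and SNORD11B (0.04) in NOP58, SNORA51 (0.14) in NOP56 and SNORA36A (-0.32) in DKC1, each on the log2 fold change scale. SNORD56 in NOP56 had 8, 0 and 2 counts after ERI2 siRNA and 8, 5 and 3 counts after control siRNA. SNORA56 in DKC1 and SNORD57, SNORD86, SNORD110 and MIR1292 in NOP56 had no count in any library, which allows up to 0.105 CPM (3 counts in control siRNA replicate 3), for counting error only. Whether the library method or the counting left out reads of RNAs inside a host gene was not tested, so these levels are those of the counted reads. The gene entry MIR664B was not analysed here.

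The miRNA-seq libraries of the same groups, 3 in each, measured the mature arms of the miRNA inside NOP56, shown with bases 2 to 8, the seed that pairs with targets, in capitals (RefSeq, GRCh38.p14, plus strand, chr20:2652819-2652838 for the 3p arm and chr20:2652779-2652803 for the 5p arm).
miR-1292-3p: uCGCGCCCcggcucccguuc
miR-1292-5p: uGGGAACGgguuccggcagacgcug
The arms have different seeds. These libraries held 741800 to 1029265 counts after ERI2 siRNA and 723224 to 808274 counts after control siRNA, with TMM factors of 1.45 to 1.63 after ERI2 siRNA and 0.639 to 0.677 after control siRNA. miR-1292-3p had 1441, 1131 and 1275 counts after ERI2 siRNA, against 308, 332 and 280 counts after control siRNA, and TMM scaling gave 974, 940 and 898 CPM against 565, 681 and 602 CPM. It was higher in every ERI2 siRNA library and rose by 0.61 on the log2 scale (SE 0.109, adjusted p = 0.000519 in edgeR's test), where 34.1% of 1316 tested miRNA names were called and 11.1% were called higher. miR-1292-5p measured 54.8, 60.7 and 51.4 CPM after ERI2 siRNA and 53.2, 67.7 and 56.0 CPM after control siRNA, with a log2 fold change of -0.08 that did not pass (adjusted p = 0.759 in edgeR's test). Total library size in place of TMM put the median of all miRNA names at 1.27 on the log2 scale, against 0.05 under TMM, and gave 1.84 for the 3p arm and 1.14 for the 5p arm, both past the test. Relative to the median of all names the 3p arm stood at 0.55 under TMM and 0.56 under total library size, and the 5p arm at -0.14 and -0.13. The arms of miR-664b, the miRNA in DKC1, had at most 21 counts in a library and were not tested.

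Around the particles, 57 genes of assembly, trafficking and related RNA modification were all tested. Of these, 6 rose and none fell in edgeR's test, where 4.29% of all tested genes rose and 4.25% fell. Before adjustment 12 were higher and 0 lower, DESeq2 called 7 and 0, and limma-voom called 5 and 0. The shares are not the background for these further counts, and before adjustment more of all tested genes passed in each direction. The median log2 fold change of the 57 genes was 0.03, against 0.0030 over all tested genes. The 6 were TERC, PUS1, PUSL1, RPUSD1, NOP2 and NSUN5, of which 5 are modification enzymes that act without a guide RNA.

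The H/ACA proteins also bind TERC, the RNA of telomerase, and TERC rose in this comparison. It measured 143, 134 and 169 CPM after ERI2 siRNA, against 106, 84.1 and 133 CPM after control siRNA, with the groups just apart (log2 fold change 0.47, SE 0.131, adjusted p = 0.0406 in edgeR's test). TERC no longer passed under total library size (adjusted p = 0.0711) or without any single library other than control siRNA replicate 3, where adjusted p ran from 0.0627 to 0.167 in edgeR's test. The catalytic subunit TERT was low, with 39, 77 and 77 counts after ERI2 siRNA and 32, 43 and 45 counts after control siRNA, and was not called (log2 fold change 0.75 and adjusted p = 0.125 in edgeR's test). The other 4 genes of that list, among them the trafficking protein gene WRAP53, did not pass.

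Of 12 pseudouridine synthases that need no guide RNA, 3 rose and none fell, beside 4.29% and 4.25% of all tested genes. RPUSD1 measured 39.1, 41.2 and 40.5 CPM after ERI2 siRNA, against 25.3, 24.7 and 28.0 CPM after control siRNA (log2 fold change 0.63, SE 0.0808, adjusted p = 0.00143 in edgeR's test). PUSL1 averaged 30.7 ± 2.47 and 21.8 ± 1.27 CPM, and PUS1, a transfer RNA enzyme, 31.3 ± 4.43 and 22.6 ± 2.50 CPM in ERI2 siRNA and control siRNA libraries (SD, n = 3), with log2 fold changes of 0.50 and 0.47. RPUSD1 and PUSL1 passed in all 15 alternatives, and PUS1 in 10 of the 15, its call ending among others without ERI2 siRNA replicate 2 (adjusted p = 0.0823), ERI2 siRNA replicate 3 (0.112) or control siRNA replicate 2 (0.0796 in edgeR's test). Of 10 listed genes of guide-free ribosomal RNA modification, NSUN5 (0.31, adjusted p = 0.0396) and NOP2 (0.22, adjusted p = 0.0482), both cytosine methyltransferases, rose in edgeR's test. The call of NOP2 ended when any 1 library was left out (adjusted p from 0.0692 to 0.186 in edgeR's test), and that of NSUN5 when any other than ERI2 siRNA replicate 1 was (from 0.0691 to 0.168).

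None of 10 box C/D assembly genes passed (unadjusted p under 0.05 in 1 gene; no call by DESeq2 or limma-voom). RUVBL2 (0.21, adjusted p = 0.0932) and ZNHIT6 (0.13, adjusted p = 0.355 in edgeR's test) had the smallest p-values, and the median of the list was 0.06. None of 11 genes of the Cajal body and nucleolar trafficking passed (unadjusted p under 0.05 in 0 genes; no call by DESeq2 or limma-voom), with XPO1 (-0.14) and SMN1 (-0.23, a gene with a near-identical copy, SMN2) lowest in p. None of the 4 proteins of the U3 particle passed (unadjusted p under 0.05 in 0 genes; no call by DESeq2 or limma-voom), where MPHOSPH10 (0.22) and RRP9 (0.10) led. None of the 4 U4 partners of NHP2L1 passed edgeR's test (unadjusted p under 0.05 in 2 genes; no call by DESeq2 or limma-voom), with PRPF3 (0.19) and PRPF31 (0.16), which shares the NOP domain of NOP56 and NOP58, leading.

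**Figure D5:**
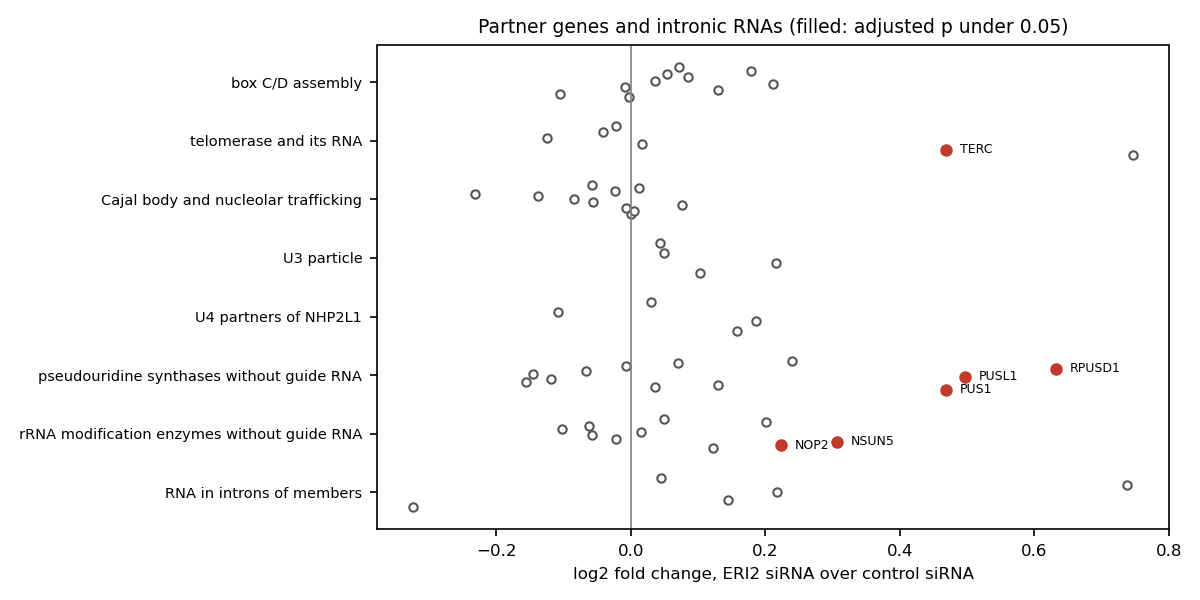
Log2 fold change of ERI2 siRNA over control siRNA for every tested gene of the partner lists and every tested RNA in introns of DKC1, NOP56 and NOP58, 1 row per list, filled and named where the adjusted p was under 0.05. The 6 filled points all lie above 0, 5 of them in the lists named for enzymes without a guide RNA.

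The guide RNAs themselves were counted in part by these libraries. Their calls in edgeR's main test stand beside 4.29% higher and 4.25% lower over all tested genes. Of 73 tested H/ACA guide RNA genes, 1 was higher and 9 were lower (median log2 fold change -0.20; 1 and 11 by DESeq2, 1 and 8 by limma-voom, 0 and 5 under total library size), and of 72 tested box C/D guide RNA genes, 0 were higher and 1 was lower (7 and 5 before adjustment, 0 and 2 by DESeq2, 0 and 1 by limma-voom, 0 and 0 under total library size, median 0.12). With replicates 2 and 3 alone, 12 box C/D guide RNA genes were higher and 2 lower, and 3 H/ACA guide RNA genes were higher and 7 lower. That fit called 2622 of all genes higher and 2670 lower, which is the background for these counts in place of the shares above. The median log2 ratio of the box C/D guide RNA genes was -0.07 between the replicate 1 libraries and 0.38 over replicates 2 and 3. For the H/ACA guide RNA genes it was -0.35 between the replicate 1 libraries and -0.06 over replicates 2 and 3.

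The mean centred profile of the 10 members over the 6 libraries was closest, by root mean square difference in log2 CPM, to RAB3IP, WDR35, N4BP2, ERCC4 and FAR2 among 10306 other genes of at least 10 CPM, at 0.018 to 0.025. None of these 5 passed edgeR's test (unadjusted p from 0.137 to 0.378). Among the members, DKC1 (0.060) and NHP2 (0.065) lay nearest to the mean profile, and GAR1 (0.17), NOP58 (0.14), NAF1 (0.14) and NOP10 (0.14) farthest.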

How the data were processed

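The submitters' processing notes name TopHat2 2.0.10, HTSeq 0.6.1p1, CASAVA 1.8.2 and build hg19 without roles. For the strand setting of the counting, no value is given in the sources used here, so reads of overlapping or antisense genes may be shared (NHP2 with RMND5B, for example). The authors deposited raw read counts per gene name and per miRNA name, and every column matched 1 sample.

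After filterByExpr and TMM scaling, each whole table was tested with edgeR 4.0.16 in R 4.3.3 (quasi-likelihood, robust, 18843 genes and 1316 miRNA names), at a Benjamini-Hochberg adjusted p under 0.05. SE is the log2 fold change over the square root of F. Replicates differed by more than counting noise (lowest chi-square over its degrees of freedom 5.00 for RNA-seq, 2.07 for miRNA-seq). Named were all members, ERI2, of each list the genes past the test (at most 4) or the 2 smallest p, tested intronic RNAs and the 5 nearest profiles. RNAs not tested and ratios to DKC1 and FBL were added after values were seen. The members and lists were chosen with earlier results of these data known. Alternatives used DESeq2 1.42.0, limma-voom (limma 3.58.1), other scaling, filters and thresholds, the replicate block and fewer libraries. The RNA-seq test was tried on simulated counts of 18843 genes, drawn independently for each gene and library. It recovered 66% of 200 genes set to 1.5-fold, with 14 false calls, and 79% of 200 set to 2-fold, with 7. The largest member change was 1.29-fold, so these rates do not give the recovery of changes as small as those of the members. Protein sequences were not used here.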

Additional observations from a re-analysis of the deposited data

How the results depend on the processing

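Counts of called genes depended on the libraries. Leaving out 1 library gave from 0 to 2 members higher (2 in the main analysis) and from 2 to 5 partner genes higher (6), with 176 to 1424 of all genes higher (809) and 195 to 1327 lower (800). Limma-voom and no count filter each left 1 member higher, and an adjusted p under 0.01 left 0. That threshold left 2 partner genes, 139 genes higher and 145 lower, and no count filter gave 1290 higher. Total library size gave 463 lower, a split of 67.8% higher against 50.3%, and SHQ1 then stood at 0.011. Replicates 2 and 3 alone gave 2622 higher and 2670 lower, 2 members and 6 partner genes lower, with NHP2 at -0.016, GAR1 at -0.007 and NHP2L1 at -0.15.

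Log2 fold changes that turned sign when 1 library was left out were those of GAR1 (from -0.10 to 0.27), NOP10 (from -0.237 to 0.027), SHQ1 (from -0.121 to 0.043), NHP2L1 (from -0.084 to 0.061, and -0.005 without the count filter) and miR-1292-5p (from -0.165 to 0.012, and 1.14 under total library size). The difference between the H/ACA and box C/D sets ran from -0.063 to 0.005 without 1 library and moved by less than the SD between replicates in all 14 alternatives. The cause was not tested.

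With the replicate number as a block, 0 members and 3 partner genes were higher, with 105 genes higher and 98 lower. Same-numbered RNA-seq libraries correlated at -0.62, -0.29 and -0.07 in their deviations from the group means, so the numbers do not pair the libraries. GAR1, TERT and the intronic RNAs had few counts, and how much of their spread is counting error was not tested.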
